A study of Mus musculus with 6 samples.

Results

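The genes described here are the antioxidant and glutathione enzymes of mouse cultures labelled as aortic endothelial cells. They were chosen by name: every protein-coding gene of the count table called a glutathione transferase (Gst, Mgst), glutathione peroxidase (Gpx), peroxiredoxin (Prdx), thioredoxin, thioredoxin reductase or thioredoxin-interacting protein (Txn, Txnrd, Txnip), superoxide dismutase (Sod), haem oxygenase (Hmox), quinone reductase (Nqo), a subunit of glutamate-cysteine ligase (Gclc, Gclm), glutathione reductase (Gsr), catalase (Cat), an NRF-type regulator (Nfe2l) or Keap1. This gave 60 genes of 54532 in the table. RNA-seq of poly-A RNA was made from 3 female and 3 male wild-type cultures, named MAEC in the labels. All were kept in F-12 medium with 20% fetal bovine serum, antibiotics, heparin and endothelial growth factors, and none was treated. Age, strain and the number of animals behind a culture are not stated, so a p-value here speaks of the spread among these 6 libraries alone, which may be technical.

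Reactive oxygen species are removed in steps. Superoxide dismutases turn superoxide into hydrogen peroxide, which catalase splits into water and oxygen. Peroxiredoxins and glutathione peroxidases reduce peroxides with electrons from thioredoxin or glutathione, which NADPH-dependent reductases restore. Glutathione transferases couple glutathione to electrophiles. The transcription factor NRF2 (gene Nfe2l2), held in check by KEAP1, binds antioxidant response elements and switches on many of these genes. In the vessel wall this network is known for protecting nitric oxide signalling from superoxide.

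Library totals were 17410996 to 22993574 counts, so a count of 0 in 1 library allows up to 0.128 to 0.171 CPM (a gene's count relative to the library total, with totals corrected by TMM), taking 3 counts as the floor, which covers counting error only. The label was not borne out by markers. Of 14 endothelial genes 13 stayed under 1 CPM throughout, with a sum of 2.99 to 4.67 CPM in female and 4.26 to 6.61 in male libraries. No count at all fell on Cldn5, Cdh5, Robo4, Tal1 or Tie1. All 10 fibroblast markers were above that level in at least 1 library, with a summed 33117 to 41028 CPM in female and 18250.0 to 25626 CPM in male libraries. Summed macrophage and leukocyte markers were 29.8 to 38.8 CPM in female and 12.8 to 19.5 in male (Ptprc, Itgam, Tyrobp and C1qa at 0, and 6 of 10 under 1 CPM in every library). Adipocyte markers summed to 43.5 to 52.0 CPM in female and 94.9 to 109 in male (Lep and Cidec at 0), smooth muscle markers to 119 to 121 and 142 to 177, and mesothelial markers to 7.49 to 11.2 and 2.13 to 4.04. Haemoglobin genes were at 0 in every library. The part of these cell type differences in the results below was not tested, and fewer cells of a type cannot be told apart from less RNA per cell. Among male libraries replicate 3 was unlike its fellows, correlating in log2 CPM at 0.966 and 0.973, where female libraries correlated at 0.983 or more, so values without it are given where they change a call or a sign, or move a called value by much.

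Of the 60 genes, 49 had enough counts to be tested and 9 differed between the sexes (edgeR quasi-likelihood test, Benjamini-Hochberg adjusted p under 0.05 over all 14932 genes tested). The 3 that were higher in female were Gstt1, Gstt2 and Gstt3, the theta class glutathione transferases, and the 6 that were lower were the glutathione peroxidases Gpx1 and Gpx3, Txnip, Mgst3, Prdx1 and Nqo1. This is 18.4% of the members tested, beside 18.3% of all genes tested, so in this run the members were called about as often as any gene. By direction, 9.68% of all genes tested were higher and 8.62% lower in female. The sexes did not overlap in CPM for 23 of the 49 (46.9%, beside 35.9% of all genes tested), with 10 higher in every female library (beside 19.2%) and 13 in every male library (beside 16.7%). The median log2 of female over male was -0.05 over the members and -0.01 over all genes. Without male replicate 3, 13 members were higher and 9 lower, all 9 calls among them. That was 44.9% of the members tested, beside 32.7% of all genes tested (16.2% higher and 16.4% lower). DESeq2 called 5 members higher and 7 lower (24%), beside 16.4% of all genes (8.23% and 8.14%). Limma-voom with quality weights called 16 and 13 (59.2%), beside 44% (22% in each direction). With an offset in gene length and GC content, edgeR called 5 and 11 (32.7%), beside 24.9% (12.5% and 12.3%). At an adjusted p under 0.01, edgeR called 3 higher and 4 lower (14.3%), beside 11.6% (6.03% and 5.59%). In these alternative runs the share called was higher among the members than among all genes, a difference that was not tested. The 40 members that did not pass had log2 values of -0.60 to 1.35, and for 35 of them the whole 95% confidence interval lay within 1 log2 unit of 0.

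**Figure D1:**
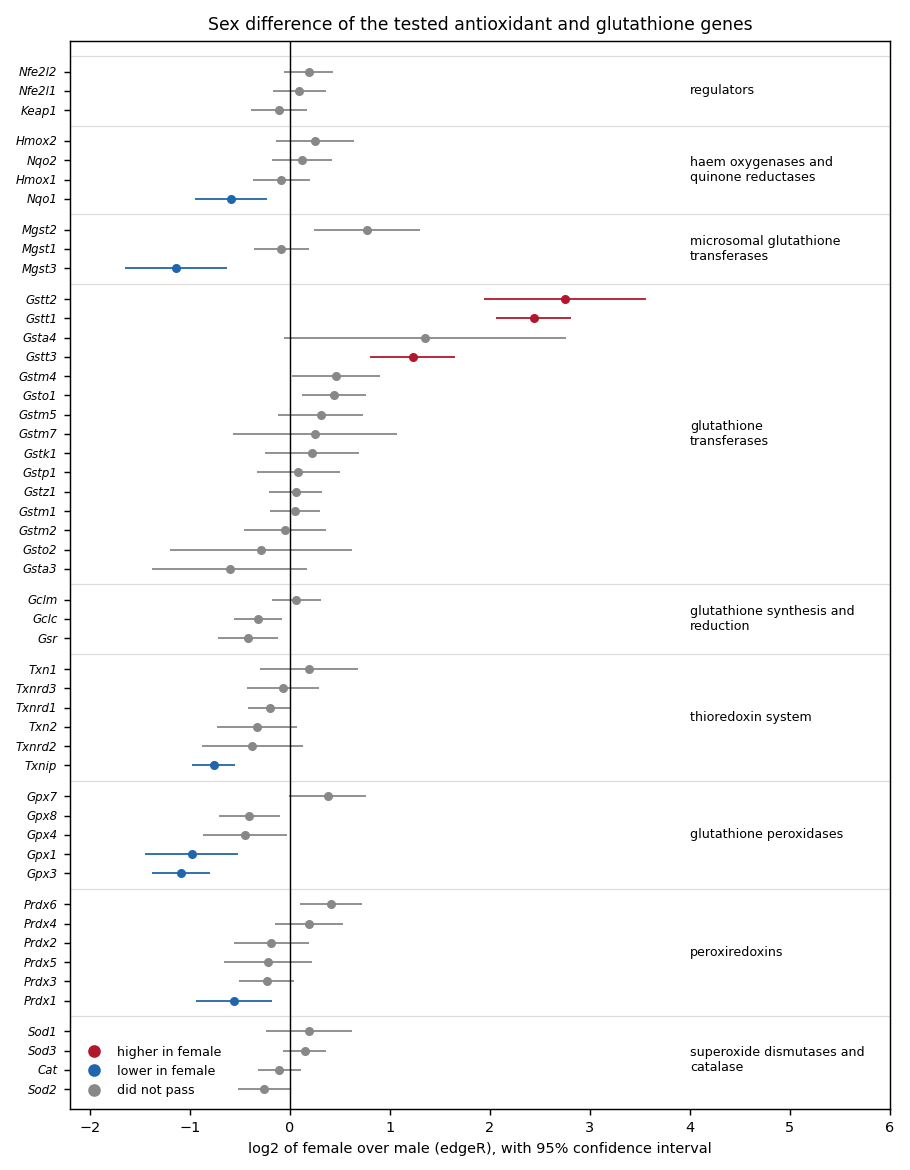
Log2 of female over male for the 49 tested genes (x axis), with the 95% confidence interval from edgeR as a line, grouped by role (3 libraries per sex). Gstt1 and Gstt2 lie furthest to the right, Gstt3 at 1.23 lies beside the uncalled Gsta4 at 1.35, and the 6 genes lower in female lie between -1.14 and -0.56, while most other intervals cross 0.

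The theta class transferases act on small halogenated compounds and epoxides and form a cluster on chromosome 10 (75774115 to 75837424, 63310 bases, all on the minus strand). Gstt1 (chromosome 10, 75783813 to 75798584) had 20.9, 21.2 and 18.1 CPM in the female libraries and 3.63, 3.31 and 4.16 CPM in the male libraries. Every female library lay above every male library, with a fitted 5.42-fold difference (log2 2.44 ± 0.17, edgeR adjusted p = 7.63e-06). Gstt2 (chromosome 10, 75831114 to 75837424) had 5.62, 5.12 and 5.81 CPM in the female libraries and 1.16, 0.398 and 0.911 CPM in the male libraries. It was 6.73-fold higher in female (log2 2.75 ± 0.36, edgeR adjusted p = 0.000495), with male values resting on 9 to 24 counts per library. Gstt3 (chromosome 10, 75774115 to 75781414) had 12.6, 10.5 and 11.2 CPM in the female libraries and 3.92, 5.39 and 5.35 CPM in the male libraries. It was 2.34-fold higher (log2 1.23 ± 0.19, edgeR adjusted p = 0.00137), and the sexes again did not overlap. An annotated gene on the same strand, Gm20441, spans most of Gstt3 and had 0 counts, and 26.0% of the 50-base words of the Gstt3 transcript also occur in it, so the level of Gstt3 is uncertain. The remaining member of the class, Gstt4, had 4 counts in female replicate 2 and 0 elsewhere. All 3 calls held under each of the 15 alternatives, with log2 values of 2.36 to 2.59 for Gstt1, 2.39 to 3.47 for Gstt2 and 1.09 to 1.30 for Gstt3.

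The promoter windows of Gstt1 and Gstt3 are shown because both genes were higher in female. They run from 250 bases before to 50 after a transcription start (RefSeq, GRCm38.p6, minus strand, written 5′ to 3′ along the gene) and are at chr10:75797682-75797981 and chr10:75781365-75781664, the latter 1 of 2 starts given for Gstt3.
Gstt1: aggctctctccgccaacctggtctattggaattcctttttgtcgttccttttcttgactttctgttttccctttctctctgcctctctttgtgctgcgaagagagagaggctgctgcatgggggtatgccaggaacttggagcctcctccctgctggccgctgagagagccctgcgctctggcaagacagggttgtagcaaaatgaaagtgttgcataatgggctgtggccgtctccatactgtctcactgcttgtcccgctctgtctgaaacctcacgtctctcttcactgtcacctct
Gstt3: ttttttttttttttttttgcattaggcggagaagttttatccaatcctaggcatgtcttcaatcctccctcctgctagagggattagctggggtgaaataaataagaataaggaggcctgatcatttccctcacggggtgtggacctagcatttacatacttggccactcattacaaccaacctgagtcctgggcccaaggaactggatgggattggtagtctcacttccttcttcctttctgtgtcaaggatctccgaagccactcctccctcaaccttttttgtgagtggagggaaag
Neither window holds TGACNNNGC, the core of the antioxidant response element, or TGACTCA, the site of AP-1 (the FOS and JUN factors), on either strand, which is why no base is in capitals. This says only that these letters are absent from these windows.

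Genes around the theta cluster were higher in female too. The flanking genes were examined after the theta values were seen. Within 200 kb of the cluster, 11 other genes were tested, of which 6 were higher, 0 lower and 5 did not pass, beside 9.68% of all genes higher in female. Ddt, a relative of the cytokine gene Mif, lies next to Gstt3 and stood at 5.92 ± 0.978 CPM in female against 3.07 ± 0.199 CPM in male cultures (log2 0.94 ± 0.22, edgeR adjusted p = 0.014). Gm20441 spans most of Ddt on the same strand too, so the level of Ddt is also uncertain. Farther out, Cabin1 had a log2 difference of 0.52 ± 0.15 and the surface protein gene Susd2 one of 3.25 ± 0.20 (edgeR adjusted p = 0.0396 and 3.97e-06). The glutathione-cleaving transpeptidase gene Ggt5 stood at 129 ± 9.90 CPM in female against 16.1 ± 1.64 CPM in male cultures (edgeR adjusted p = 5.74e-07). On the other side of the cluster, the matrix metalloproteinase gene Mmp11 and Chchd10, which overlap on opposite strands, had log2 differences of 3.87 ± 0.16 and 3.74 ± 0.41 (edgeR adjusted p = 5.74e-07 and 0.000165). Mmp11 stood at 830 ± 105 CPM in female against 56.7 ± 8.23 CPM in male cultures, and Chchd10 at 11.1 ± 2.02 against 0.808 ± 0.565 CPM. Whether counting used strand is not known here, so the level of the scarcer Chchd10 is uncertain. Between these overlapping genes and the theta genes, Mif (0.54 ± 0.22, edgeR adjusted p = 0.138), Derl3 (1.46 ± 0.55, edgeR adjusted p = 0.105) and Smarcb1 (0.15 ± 0.14, edgeR adjusted p = 0.512) did not pass. Gm19688 and Zfp280b, toward the ends of the window, did not pass either (log2 2.07 ± 0.88 and 0.02 ± 0.20). Without male replicate 3, Mif at 0.88 (edgeR adjusted p = 5.93e-07) and Smarcb1 at 0.30 (edgeR adjusted p = 0.018) were called. Cabin1 was not called without any 1 of the female libraries or male replicate 2, and Ddt not without female replicate 1 or 2 or male replicate 2 (edgeR adjusted p = 0.0574 to 0.175 and 0.0598 to 0.0806).

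**Figure D2:**
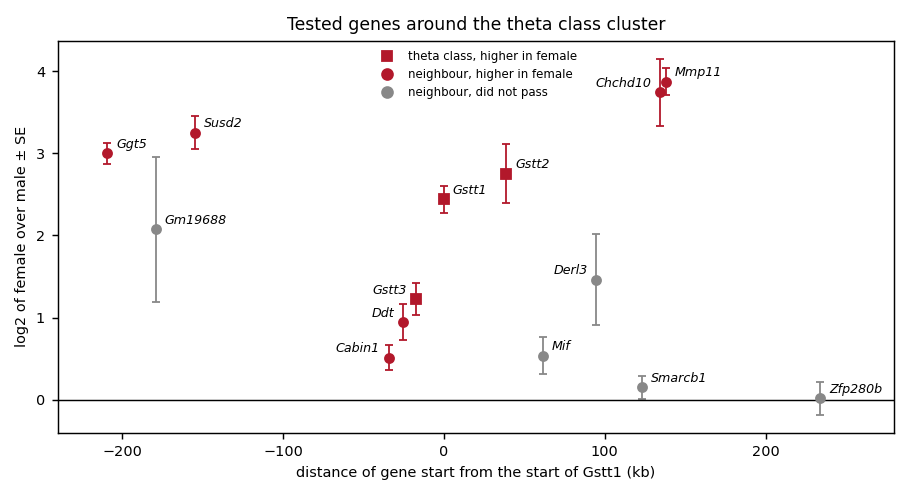
Fitted log2 difference, female over male, with its SE for each tested gene (y axis) against the distance of its start from that of Gstt1 in kb (x axis), with theta class genes as squares. All 14 points lie at or above 0, and the 3 theta genes share the window with 6 other genes that were higher in female.

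Outside the theta class, 0 of 12 tested Gst genes were called by edgeR (2 at an unadjusted p under 0.05, 1 by DESeq2 and 5 by limma-voom with quality weights). Gstp1, the pi class enzyme, was the second most abundant member per length, at 786 ± 25.7 TPM in female against 683 ± 127 TPM in male cultures (TPM, a level corrected for the gene length in the deposited table). On the CPM scale it had 166, 179 and 186 CPM in the female libraries and 128, 151 and 222 CPM in the male libraries, and the highest and lowest values were both male (log2 0.08 ± 0.18, edgeR adjusted p = 0.813). Without male replicate 3 its log2 difference was 0.34 (edgeR adjusted p = 0.00913), and without male replicate 1 it was -0.08 (edgeR adjusted p = 0.803). The neighbouring copy Gstp2 was not tested. It had 144 counts in male replicate 3 and 2 to 11 in every other library, so its male mean rests on that library. Gstp3 had 0 counts throughout.

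Reads of the pi class genes are hard to assign. Of the 50-base words in the Gstp1 transcript, 62.3% also occur in Gstp2 or in the pseudogene Gstp-ps, which itself held 316 to 596 counts per library. The likeness extends to the promoters, shown here as excerpts around the AP-1 site (capitals) from the RefSeq windows at chr19:4037863-4038162 and chr19:4042172-4042471 (GRCm38.p6, minus strand).
Gstp1: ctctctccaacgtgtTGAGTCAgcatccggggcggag
Gstp2: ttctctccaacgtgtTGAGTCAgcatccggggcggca
In both genes the site reads TGAGTCA along the gene, the reverse complement of TGACTCA. The values of Gstp1 and Gstp2 are therefore uncertain, and a ratio between them is not given.

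The mu class, a cluster of 7 genes on chromosome 3 (107895821 to 108044894), had 5 tested members and 0 calls by edgeR (1 at an unadjusted p under 0.05, 0 by DESeq2 and 2 by limma-voom). Gstm1, its most abundant member, stood at 275 ± 5.23 TPM in female against 247 ± 3.45 TPM in male cultures. Its CPM values were 117, 124 and 119.6 CPM in the female libraries and 106, 113 and 129.8 CPM in the male libraries, with overlap between the sexes and a 95% interval of the log2 difference of -0.20 to 0.30. Gstm2, Gstm5, Gstm4 and Gstm7 had log2 differences of -0.05 ± 0.18, 0.31 ± 0.19, 0.46 ± 0.19 and 0.25 ± 0.37. Gstm6 had 3 and 5 counts in 1 male and 1 female library and 0 elsewhere, and Gstm3 had 0 throughout. Gsto1 of the omega class, which reduces dehydroascorbate and arsenicals, had 126, 139.6 and 150.2 CPM in the female libraries and 89.0, 93.8 and 124 CPM in the male libraries. All female values lay above all male values, and the difference did not pass (log2 0.44 ± 0.14, edgeR adjusted p = 0.063). Gsto1 lies within the span of Cfap43 on the opposite strand, and whether counting used strand is not known here. The alpha class was near the floor: Gsta4 stood at 1.38 ± 0.446 CPM in female against 0.523 ± 0.430 CPM in male cultures and Gsta3 at 1.54 ± 0.350 CPM in female against 2.35 ± 0.593 CPM in male cultures, neither called, while Gsta1 and Gsta2 had 0 counts in all 6 libraries. Gstz1 and Gstk1 had log2 differences of 0.06 ± 0.12 and 0.22 ± 0.21.

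Among the microsomal transferases, membrane enzymes with transferase and peroxidase activity, the abundant Mgst1 did not differ beyond its spread and the scarcer Mgst3 was lower in female. Mgst3 (chromosome 1, 167371966 to 167393841) had 5.07, 4.61 and 5.13 CPM in the female libraries and 8.19, 10.1 and 14.4 CPM in the male libraries. All male values lay above all female values (log2 -1.14 ± 0.23, edgeR adjusted p = 0.00646), and without male replicate 3, the highest, the log2 difference was -0.89 (edgeR adjusted p = 0.00207). Mgst2 went the other way, with 6.77, 5.18 and 5.86 CPM in the female libraries and 3.05, 3.00 and 4.44 CPM in the male libraries, and stayed just outside the threshold (log2 0.77 ± 0.24, edgeR adjusted p = 0.051). Mgst1 stood at 117 ± 3.87 CPM in female against 125 ± 18.2 CPM in male cultures, with a 95% interval of the log2 difference of -0.36 to 0.19.

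Of the glutathione peroxidases, 2 of 5 tested were lower in female and 3 did not pass, beside 8.62% of all genes called lower. Gpx1, the cytosolic selenoenzyme that reduces hydrogen peroxide (chromosome 9, 108338903 to 108340343), had 55.7, 58.6 and 68.1 CPM in the female libraries and 91.9, 103 and 165 CPM in the male libraries. Female values were all below male values, 1.97-fold by the fit (log2 -0.98 ± 0.21, edgeR adjusted p = 0.00858). Male replicate 3 was the highest, and without it the log2 difference was -0.68 (edgeR adjusted p = 2.04e-05). Gpx3, the secreted plasma form (chromosome 11, 54902453 to 54910377), had 33.9, 37.5 and 33.4 CPM in the female libraries and 69.3, 67.8 and 86.7 CPM in the male libraries. It was 2.13-fold lower in female with no overlap (log2 -1.09 ± 0.13, edgeR adjusted p = 0.000262).

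Gpx4, which reduces lipid hydroperoxides in membranes and guards against ferroptosis, had 190.4, 215 and 203 CPM in the female libraries and 214, 245 and 372 CPM in the male libraries. The sexes overlapped in part, male replicate 3 was far the highest, and the gene did not pass (log2 -0.45 ± 0.19, edgeR adjusted p = 0.144). Without that library its log2 difference was -0.18 (edgeR adjusted p = 0.15). It was called lower without male replicate 1, at -0.61 (edgeR adjusted p = 0.0336), without a filter, with limma-voom and with the length and GC offset. Of the 50-base words in its transcript 61.7% are shared with other genes, chiefly the pseudogene Gpx4-ps2 with 667 to 1138 counts per library, so its level is uncertain. Gpx8, an enzyme of the endoplasmic reticulum, had 99.7, 112 and 111 CPM in the female libraries and 123, 134 and 171 CPM in the male libraries. All male values lay above all female values without passing (log2 -0.40 ± 0.14, edgeR adjusted p = 0.0747). It passed without male replicate 1, at -0.50 (edgeR adjusted p = 0.0295), and without male replicate 3, at -0.25 (edgeR adjusted p = 0.0425). Gpx8 also passed with DESeq2 (adjusted p = 0.0416), with the replicate block (edgeR adjusted p = 0.0361), without a filter, with limma-voom and with the length and GC offset. Its relative Gpx7 had a positive log2 difference (0.38 ± 0.17, edgeR adjusted p = 0.178). Gpx2 had 7 counts in female replicate 3 and 0 elsewhere, and Gpx5 and Gpx6 had 0 counts in all 6 libraries.

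Peroxiredoxins, abundant thiol peroxidases, carried the largest summed level of any role, 1794 to 2010.3 TPM in female and 1981 to 2475 TPM in male libraries. Prdx1 was the most abundant of all 60 genes per length (802 ± 74.1 TPM in female against 1094 ± 133 TPM in male cultures). Its CPM values (chromosome 4, 116685544 to 116700822) were 642, 726 and 810.3 in the female libraries and 926, 931 and 1355 in the male libraries. Male values were all above female values, and male replicate 3 was the highest by far. Other genes share 10.9% of the 50-base words of its transcript. The difference passed narrowly (log2 -0.56 ± 0.17, edgeR adjusted p = 0.0471). It no longer passed with upper quartile scaling (edgeR adjusted p = 0.0608) or without any 1 of the 3 female libraries or male replicate 2 (edgeR adjusted p = 0.0553 to 0.16). Without male replicate 3 the log2 difference was -0.36 and passed (edgeR adjusted p = 0.00646).

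The Prdx1 promoter is printed because it alone among the member windows has the antioxidant response element core and the AP-1 site overlapping. The window is chr4:116685349-116685648 (RefSeq, GRCm38.p6, plus strand, 5′ to 3′), with matches to TGACNNNGC or TGACTCA on either strand in capitals.
Prdx1: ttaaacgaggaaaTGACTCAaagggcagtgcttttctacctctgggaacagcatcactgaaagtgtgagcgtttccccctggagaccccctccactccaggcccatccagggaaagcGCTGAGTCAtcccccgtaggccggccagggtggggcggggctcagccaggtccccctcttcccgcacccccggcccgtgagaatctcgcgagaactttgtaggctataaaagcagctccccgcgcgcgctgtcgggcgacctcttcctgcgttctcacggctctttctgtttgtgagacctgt
The stretch GCTGAGTCA is the reverse complement of TGACTCAGC, which matches both motifs. It begins 133 bases before the start, while the upstream TGACTCA matches AP-1 alone. Windows were given for 53 of the 60 genes, 74 in all. Gclc, Gsr, Gsta4, Gstt2, Hmox1, Prdx6 and Sod3 had no window. TGACNNNGC was found on either strand in 9 windows (12.2%), beside 13% of 21230 windows of protein-coding genes. These were windows of Gclm, Gsta3, Gstm5, Gstm7, Mgst1, Nfe2l2, Prdx1, Sod1 and Txnrd1. TGACTCA was in 5 (6.76%, beside 4.66%), and an overlapping match to both in 1 (1.35%, beside 0.415%). Of the 9 genes with the core motif, Prdx1 was the only gene called. Sites outside the windows were not searched, so a gene without a match here may have one farther away.

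Other peroxiredoxins did not pass. Prdx6, which acts with glutathione and also has phospholipase activity, had 232, 247 and 249 CPM in the female libraries and 154, 173 and 219.7 CPM in the male libraries. Its female values were all above the male values (log2 0.41 ± 0.14, edgeR adjusted p = 0.0701), opposite in sign to Prdx1. Prdx1 exceeded Prdx6 by a TPM ratio of 4.72 ± 0.387 in female and 9.24 ± 0.669 in male libraries. Prdx5 and Prdx2 spread widely among male libraries, with 244, 270.3 and 258 CPM in the female libraries and 221, 275 and 404 CPM in the male libraries for Prdx5 and a log2 difference of -0.19 ± 0.17 for Prdx2, which overlaps Junb on the opposite strand. The mitochondrial Prdx3 had a log2 difference of -0.23 ± 0.12 and Prdx4, of the secretory pathway and the only X-linked member, 0.19 ± 0.15 (edgeR adjusted p = 0.243 and 0.445).

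In the thioredoxin system 1 of 6 tested genes was called, beside 18.3% of all genes. Txnip, which binds and inhibits thioredoxin and restrains glucose uptake (chromosome 3, 96557957 to 96561883), had 158, 159.8 and 156 CPM in the female libraries and 260.2, 266 and 277 CPM in the male libraries. Values within each sex were close together and far from the other sex, 1.70-fold lower in female (log2 -0.76 ± 0.10, edgeR adjusted p = 0.000359). It was called under all 15 alternatives with log2 values of -0.83 to -0.74. The cytosolic thioredoxin gene Txn1 had 141, 154 and 153 CPM in the female libraries and 90.0, 119 and 184 CPM in the male libraries. The male libraries enclosed the female values, and the difference did not pass (edgeR adjusted p = 0.623), but without male replicate 3 it did (log2 0.51, edgeR adjusted p = 0.000768). The TPM ratio of Txnip to Txn1 was 0.356 ± 0.0182 in female and 0.745 ± 0.233 in male libraries, where it ran from 0.508 in replicate 3 to 0.973 in replicate 1. The reductase gene Txnrd1, 173 ± 3.56 CPM in female against 199 ± 9.88 CPM in male cultures, did not overlap between the sexes and did not pass (log2 -0.20 ± 0.10, edgeR adjusted p = 0.2). Mitochondrial Txn2 and Txnrd2 and the testis-enriched Txnrd3 had log2 differences of -0.33 ± 0.18, -0.38 ± 0.22 and -0.07 ± 0.16, none called.

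**Figure D3:**
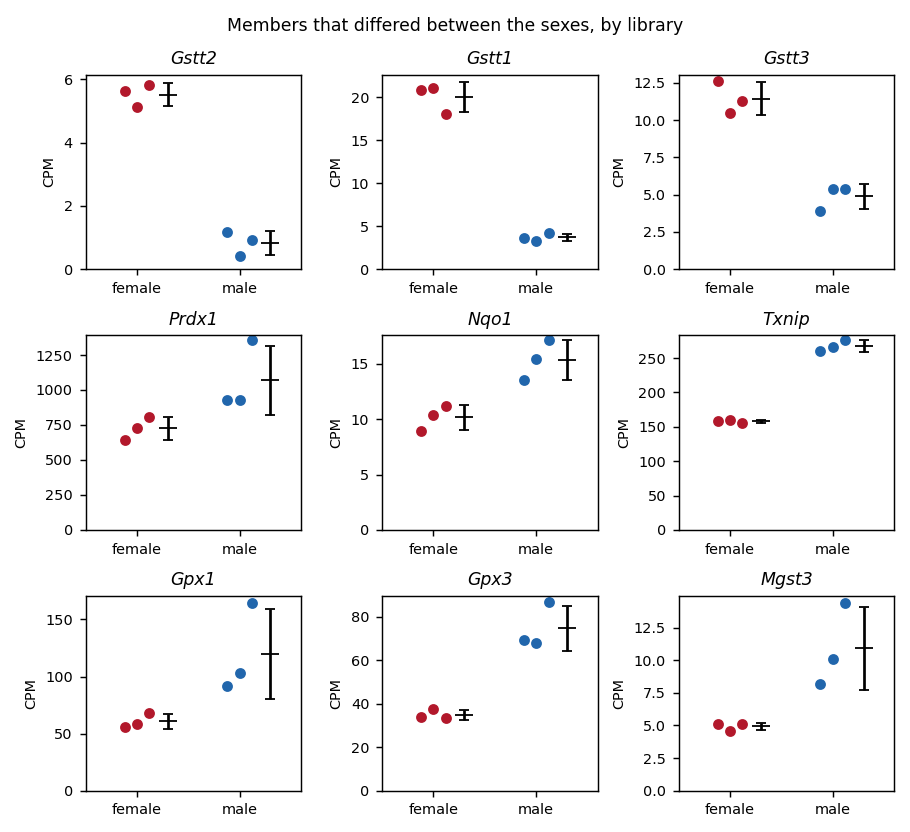
CPM in each library (points, red for female and blue for male) for the 9 genes called, with the mean and SD of 3 libraries beside them. The sexes do not overlap in any panel, and in Prdx1, Gpx1 and Mgst3 1 male library, replicate 3, lies well above the other male libraries.

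Genes of glutathione synthesis and reduction were not called by edgeR (0 of 3, with 2 at an unadjusted p under 0.05, 0 by DESeq2 and 2 by limma-voom). Gclc, the catalytic subunit of the rate-limiting ligase, had 47.1, 46.0 and 51.7 CPM in the female libraries and 63.4, 59.8 and 57.3 CPM in the male libraries, with all male above all female values (log2 -0.32 ± 0.11, edgeR adjusted p = 0.0716). Gclm, the modifier subunit, had 58.3, 50.8 and 56.3 CPM in the female libraries and 54.7, 53.5 and 49.9 CPM in the male libraries, with overlap (log2 0.06 ± 0.11). The TPM ratio of Gclc to Gclm was 1.47 ± 0.102 in female and 1.91 ± 0.0350 in male libraries. Gsr, which regenerates reduced glutathione, had 16.7, 18.7 and 15.5 CPM in the female libraries and 21.5, 23.6 and 22.9 CPM in the male libraries. Male values were above female values, just outside the threshold (log2 -0.42 ± 0.13, edgeR adjusted p = 0.059).

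Superoxide dismutases and catalase were not called by edgeR either (0 of 4, with 1 at an unadjusted p under 0.05, 0 by DESeq2 and 3 by limma-voom). Extracellular Sod3, which binds heparan sulfate in the vessel wall, had 219, 231 and 222 CPM in the female libraries and 202, 200.3 and 204 CPM in the male libraries. Its female values lay above the male ones by a small margin (log2 0.15 ± 0.09, edgeR adjusted p = 0.345). Mitochondrial Sod2 stood at 133 ± 4.82 CPM in female against 159 ± 19.3 CPM in male cultures and catalase at 88.4 ± 2.62 CPM in female against 95.2 ± 3.08 CPM in male cultures, in both cases with all male values higher (log2 -0.26 ± 0.11 and -0.11 ± 0.10). Cytosolic Sod1 ranged over 77.3 to 139.7 CPM among male libraries and overlapped with female (log2 0.19 ± 0.19).

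Of the haem oxygenases and quinone reductases 1 of 4 was called, beside 18.3% of all genes. Nqo1, a textbook NRF2 target that reduces quinones (chromosome 8, 107388225 to 107403206), had 8.96, 10.4 and 11.2 CPM in the female libraries and 13.6, 15.4 and 17.1 CPM in the male libraries. All female values lay below all male values (log2 -0.59 ± 0.16, edgeR adjusted p = 0.0296). It did not pass without any 1 of the female libraries or male replicate 2 (edgeR adjusted p = 0.0541 to 0.121). Hmox1, which breaks down haem and was the third most abundant member per length (507 ± 14.9 TPM in female against 499.5 ± 38.5 TPM in male cultures), had 261, 269.9 and 259 CPM in the female libraries and 236, 284 and 318 CPM in the male libraries. The male values enclosed the female ones, and the 95% interval of the log2 difference was -0.37 to 0.20. Hmox2 and Nqo2, both overlapped by another gene on the opposite strand, had log2 differences of 0.25 ± 0.17 and 0.12 ± 0.13.

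The regulators showed no call by edgeR (0 of 3 tested, 0 at an unadjusted p under 0.05, 0 by DESeq2 and 1 by limma-voom). Nfe2l2 had 384, 399 and 447 CPM in the female libraries and 353, 346 and 382 CPM in the male libraries and its female values all lay above the male values, with a log2 difference of 0.19 ± 0.11 (edgeR adjusted p = 0.292). Keap1 stood at 47.7 ± 5.80 CPM in female against 51.4 ± 4.08 CPM in male cultures (log2 -0.11 ± 0.13). Nfe2l1, which controls proteasome genes, had 486, 472 and 411 CPM in the female libraries and 419, 470.3 and 393 CPM in the male libraries, with overlap (log2 0.09 ± 0.12). Nfe2l3 had 2 to 14 counts per library and was not tested.

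Per length, the 60 genes summed to 7374 to 7637 TPM in female and 7099 to 8454 TPM in male libraries, and the sexes overlapped. By role, peroxiredoxins held 25.3 ± 1.00% of that sum in female and 28.1 ± 1.08% in male libraries. Glutathione transferases other than the microsomal ones held 22.1 ± 0.108% and 17.8 ± 0.799%. Glutathione peroxidases held 14.3 ± 0.249% and 18.1 ± 0.926%. The theta class summed to 59.0 ± 5.16 TPM in female and 12.2 ± 0.24 TPM in male libraries, a small part of the transferases in both.

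**Figure D4:**
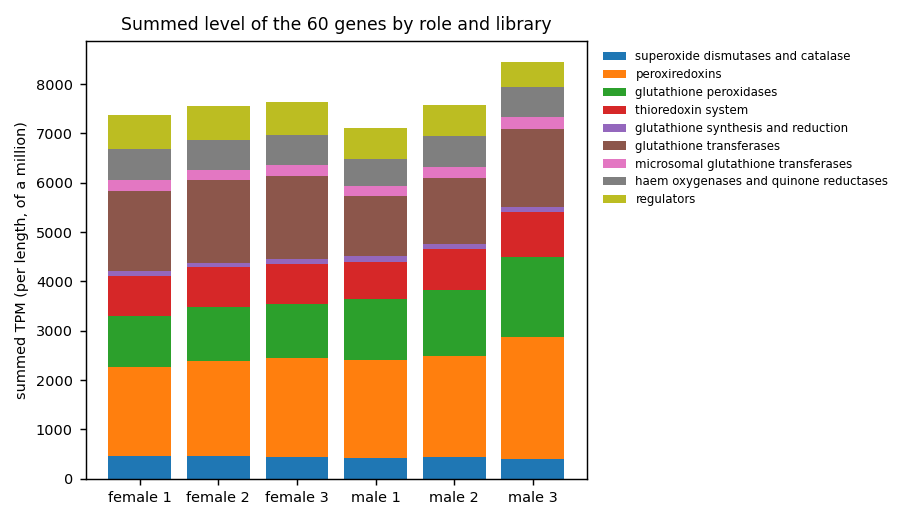
Summed TPM of the 60 genes in each library (bar height), divided by role (colours). The female bars reach 7374 to 7637 TPM and the male bars 7099 to 8454 TPM, with male replicate 3 the highest of all.

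Levels of these genes ran high in male replicate 3. It was the highest male library for 37 of the 49 tested members (75.5%, beside 42.5% of all genes tested). Its median deviation from the mean of the 6 libraries was 0.22 on the log2(CPM + 0.5) scale over the members and 0.0034 over all genes, while male replicate 1 stood at -0.12 over the members. Against the other male libraries the largest excesses were in Txn1 (0.82), Gpx1 (0.76), Txnrd2 (0.73), Prdx5 (0.71) and Gpx4 (0.70), on the same scale. It was the lowest male library for 6 members, Gsta4, Nfe2l1, Gclm, Gclc, Txnrd1 and Cat. What set this library apart was not tested.

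Without male replicate 3, 13 members that did not pass with it were called. Higher in female, beside Gstp1 and Txn1, were 8 others. Among the transferases these were Gsto1 at 0.60 (edgeR adjusted p = 4.94e-05), Gstm5 at 0.54 (edgeR adjusted p = 0.00225) and Mgst2 at 0.97 (edgeR adjusted p = 0.00515). Among the peroxidases they were Gpx7 at 0.59 (edgeR adjusted p = 0.000332), Prdx6 at 0.57 (edgeR adjusted p = 4.62e-05) and Prdx4 at 0.36 (edgeR adjusted p = 0.0082). The remaining pair were Sod1 at 0.43 (edgeR adjusted p = 0.00425) and Hmox2 at 0.47 (edgeR adjusted p = 0.00294). Lower in female, beside Gpx8, were Gclc at -0.35 (edgeR adjusted p = 0.0107) and Gsr at -0.41 (edgeR adjusted p = 0.0291). The sign turned from negative to positive, without a call, in Gstm2 (0.16), Hmox1 (0.02), Mgst1 (0.03), Prdx2 (0.01) and Prdx5 (0.05). Txn2 and Txnrd2 stood nearer 0, at -0.09 and -0.09.

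**Figure D5:**
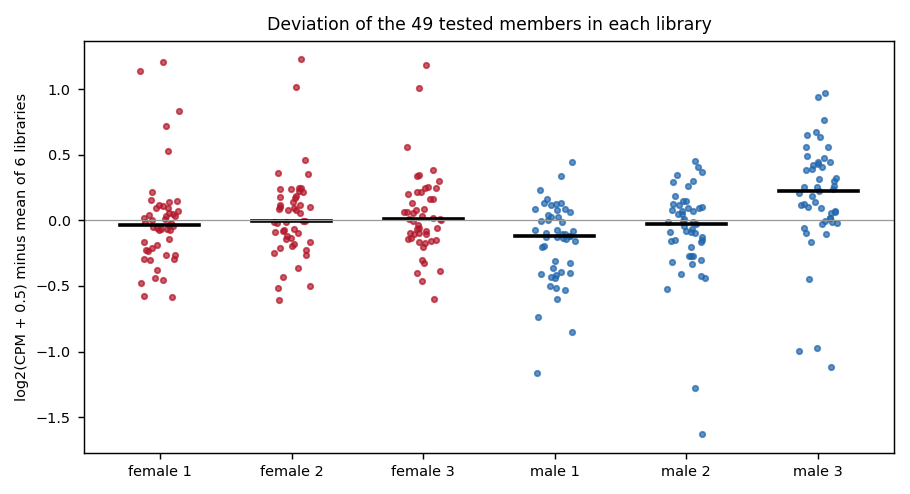
Deviation of each of the 49 tested genes (points) from its mean over the 6 libraries, as log2(CPM + 0.5), by library, with the median as a bar. The median is 0.22 in male replicate 3 and -0.12 in male replicate 1, and the female medians lie between -0.03 and 0.01.

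The tested members known as selenoproteins in the mouse, Gpx1, Gpx3, Gpx4, Txnrd1, Txnrd2 and Txnrd3, all had negative log2 differences, from -1.09 to -0.07, and 2 of the 6 were called, beside 8.62% of all genes called lower and 51.0% of all genes with a negative sign. None of these signs turned under the 15 alternatives. This grouping was made after the values were seen. For this and the following lists of related genes, the share of all genes tested that was called is 9.68% higher and 8.62% lower. Of 14 other selenoprotein genes tested, 2 were higher in female, 1 lower and 11 did not pass. Dio2, the deiodinase that activates thyroid hormone, stood at 518 ± 16.7 CPM in female against 99.3 ± 23.8 CPM in male cultures (edgeR adjusted p = 9.99e-06). Selenop, the selenium carrier, stood at 593 ± 5.62 CPM in female against 381 ± 24.3 CPM in male cultures (edgeR adjusted p = 0.00175), and Selenoi had a log2 difference of -0.53 ± 0.14 (edgeR adjusted p = 0.0234). Among 10 genes of selenoprotein synthesis 1 was higher and 0 lower: Scly, which frees selenium from selenocysteine, at 25.3 ± 0.142 CPM in female against 8.88 ± 0.939 CPM in male cultures (edgeR adjusted p = 5.05e-05).

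Of genes that supply and recycle glutathione, 4 of 20 tested were higher in female, 5 lower and 11 did not pass (45% called, beside 18.3% of all genes). The list was chosen with earlier results of these data known, and its Ggt5 was already counted beside the theta cluster. Whether such genes were called more often than others was therefore not tested. Beside Ggt5, Oplah, which recycles oxoproline, was higher (41.3 ± 2.80 CPM in female against 14.4 ± 2.38 CPM in male cultures, edgeR adjusted p = 8.59e-05). Lower in female were Anpep, the peptidase that acts after the transpeptidases (24.7 ± 2.40 CPM in female against 64.2 ± 2.56 CPM in male cultures, edgeR adjusted p = 3.06e-05), and the glutaredoxin gene Glrx (34.6 ± 3.14 CPM in female against 77.6 ± 7.65 CPM in male cultures, edgeR adjusted p = 0.000125). Of 17 tested genes listed under NADPH supply, a list that takes in all malic enzyme genes, 1 was higher and 2 lower. Idh1, a cytosolic NADPH source, had a log2 difference of 0.44 ± 0.10, the malic enzyme gene Me2 of -0.81 ± 0.13 and Aldh1l1 of -0.82 ± 0.19 (edgeR adjusted p = 0.0129, 0.00146 and 0.0127).

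Partners of NRF2 had 0 calls of 9 tested by edgeR (1 at an unadjusted p under 0.05, 0 by DESeq2 and 4 by limma-voom). Mafg, a small MAF protein that pairs with NRF2, had the smallest p, with a log2 difference of -0.29 ± 0.11 (edgeR adjusted p = 0.108), and without male replicate 3 it was called at -0.36 (edgeR adjusted p = 0.00364), as was Sqstm1, whose product binds KEAP1, at 0.36 (edgeR adjusted p = 0.00372). Of 13 genes listed as other known NRF2 targets 0 were higher and 2 lower in female. The list leaves out targets counted elsewhere. Among these, Slc7a11 of the glutathione supply genes was higher in female (log2 1.59 ± 0.28, edgeR adjusted p = 0.00301). The ferritin heavy chain gene Fth1 stood at 3884 ± 315 CPM in female against 6547 ± 1771 CPM in male cultures and the epoxide hydrolase gene Ephx1 at 63.3 ± 5.05 CPM in female against 100.2 ± 10.6 CPM in male cultures (edgeR adjusted p = 0.0179 and 0.00346). Without male replicate 3 the log2 difference of Fth1 was -0.51 in place of -0.75. Cbr1 of the same list was then called higher, at 0.70 (edgeR adjusted p = 6.35e-05). Oxidant producing enzymes were lower in 2 of 11 tested and higher in 0. They were the oxidoreductase gene Ero1l of the endoplasmic reticulum (140.2 ± 4.18 CPM in female against 259.6 ± 62.5 CPM in male cultures, edgeR adjusted p = 0.00418) and Noxa1, an activator of NADPH oxidase that was scarce in both sexes (0.123 ± 0.0922 CPM in female against 1.59 ± 0.0492 CPM in male cultures, edgeR adjusted p = 0.00166). The NADPH oxidase gene Nox4 had a log2 difference of 0.39 ± 0.16 and was not called (edgeR adjusted p = 0.136).

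Other redox genes were higher in 2 of 13 tested and lower in 0, the lactonase gene Pon3 with a log2 difference of 1.08 ± 0.17 (edgeR adjusted p = 0.00142), and the methionine sulfoxide reductase gene Msrb3, with 0.41 ± 0.11 (edgeR adjusted p = 0.0237). Relatives of the glutathione transferases were higher in 2 of 7 and lower in 1. Ptges, the microsomal prostaglandin E synthase of the same membrane family as Mgst1, stood at 327 ± 11.6 CPM in female against 145 ± 5.20 CPM in male cultures (edgeR adjusted p = 2.9e-05). Clic5 stood at 24.4 ± 1.77 CPM in female libraries and had 2 counts over the 3 male libraries, and Ltc4s, the leukotriene C4 synthase gene, had 6 counts over the 3 female libraries and 0.866 ± 0.0656 CPM in male libraries (edgeR adjusted p = 0.0469). Over all 9 lists, 12 of 114 tested genes were higher in female and 13 lower (21.9% called, beside 18.3% of all genes). Without male replicate 3, 28 were higher and 18 lower, where 16.2% of all genes were higher and 16.4% lower. Those newly called included Cbr1, Idh2, Sephs2, Sesn1 and Selenon, which were higher, and Pon2 and Ptges2, which were lower (edgeR adjusted p = 6.35e-05 to 0.0394).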

How the data were processed

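The authors deposited raw counts for each gene in each library, as whole numbers without normalization, with 1 length per gene. HISAT2 2.0.5 and featureCounts 1.5 are named in the submitters' processing notes, while build and strandedness are not given in the sources. Among the 60 genes, 56 had the same coordinates in GENCODE M21 (GRCm38), and coordinates of genes are those of the deposited table. Groups follow the sex in the sample titles. The members and lists were chosen with earlier results of these data known.

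The counts went into edgeR 4.0.16 under R 4.3.3 (quasi-likelihood F test, robust, TMM, filterByExpr with a minimum count of 10), on all 6 libraries with sex as the only term, and adjusted over all 14932 genes. CPM uses TMM-scaled totals. TPM uses the deposited lengths, which can be longer than the main transcript. Values are mean ± SD (n = 3) or log2 of female over male ± SE. Libraries of one sex differed by more than sampling noise (chi-square per degree of freedom 7.87 to 79.8), so no libraries were merged. This does not show that they came from separate cultures. Genes called, the 10 members highest in TPM, all other tested members and up to 4 genes of each list with the smallest p could be named. On simulated counts (14608 genes) 66% of 100 genes simulated with a 2-fold difference and 83% of 100 with a 4-fold one were found, and 6.88% of calls were wrong. No other gene was changed there and no library was made unlike the rest. In the data 18.3% of genes were called and male replicate 3 stood apart, so these shares may not hold for the data. Alternatives covered the test (DESeq2 1.42.0 or limma-voom 3.58.1 with quality weights), the scaling (RLE or upper quartile), the filter (none, or 50 counts on average), a block for replicate number, leaving out single libraries, a threshold of 0.01, and an offset smooth in gene length and GC content. Whether replicate numbers pair the samples is treated in the closing section.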

Additional observations from a re-analysis of the deposited data

How the results depend on the processing

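Of the 9 calls, Gstt1, Gstt2, Gstt3, Gpx1, Gpx3, Txnip and Mgst3 held under all 15 alternatives, with adjusted p-values up to 0.0416, and Prdx1 and Nqo1 did not. DESeq2 called 12 members (5 higher), edgeR without a filter 15 (6 higher) and with the replicate block 13 (6 higher). Of all genes, 1551, 1725 and 1619 were higher in these 3 runs and 1535, 1725 and 1449 lower. DESeq2 added Gpx8, Gsto1 and Prdx6. The block added these and Mgst2, and the run without a filter also Gpx4 and Gstp2. With the length and GC offset 5 members were higher and 11 lower, as were 1873 and 1840 of all genes. The offset added Gclc, Gpx4, Gpx7, Gpx8, Gsr, Gsto1 and Prdx3. By limma-voom (quality weights) 16 members were higher and 13 lower, as were 30 and 26 list genes and 3288 and 3283 of all genes, against 1446 and 1287 by edgeR. At an adjusted p under 0.01, 900 genes were higher and 835 lower, and 8 list genes were lower. Without single libraries, there were 3 to 13 members higher and 4 to 9 lower, 9 to 28 list genes higher and 8 to 18 lower (8 without female replicate 3), and 967 to 2508 of all genes higher and 903 to 2543 lower. The highest counts over all genes, and of members and list genes higher in female, came when male replicate 3 was left out, and for these shifts the cause was not tested. In these runs the log2 difference turned sign in 8 members, Gstm1 (-0.015 to 0.136), Gstm2 (-0.236 to 0.159), Gstp1 (-0.0797 to 0.342), Hmox1 (-0.197 to 0.0166), Mgst1 (-0.174 to 0.0338), Prdx2 (-0.301 to 0.014), Prdx5 (-0.402 to 0.051), Txn1 (-0.0212 to 0.513), and in the neighbour Zfp280b (-0.184 to 0.198). Limma-voom turned Gstm2 to 0.0212 and Zfp280b to -0.202, and the length and GC offset turned Zfp280b to -0.00689. Beside Prdx1, Nqo1, Cabin1 and Ddt, single libraries decided the calls of Aldh1l1, Fth1, Idh1, Ltc4s, Msrb3 and Selenoi (adjusted p up to 0.159). The numbering gave no clear pairing: deviations of same-numbered libraries correlated at 0.206, -0.00405 and 0.152, and those of differently numbered libraries at -0.274 to 0.184. The replicate block added 4 member calls and lost 0. The summed CPM of the members had a female to male ratio of 0.904, and 0.976 in TPM. The scarce Gsta3, Gsta4, Gstm7, Gsto2 and Mgst2 have intervals reaching beyond 1 log2 unit.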
